A study of Mus musculus with 4 samples.

Results

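The genes described here are the 33 rows of the counts table, of 24062, that encode enzymes, carriers and regulators of fatty acid oxidation. They were chosen by symbol from a list covering fatty acid release, activation, the carnitine shuttle, beta-oxidation in mitochondria and peroxisomes, and electron transfer flavoprotein. All 33 were found in the table, and all 33 passed the filter on low counts.

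RNA was sequenced from gBT-I cells, which are CD8+ T cells with a transgenic T cell receptor for the gB498-505 peptide of herpes simplex virus glycoprotein B. Splenocytes of SPF gBT-I donors were activated in culture with that peptide and LPS, and an interleukin that the labels name IL-1 was added on days 2 and 3. On day 4 the cells were injected into a vein of germ free (GF) or specific pathogen free (SPF) C57BL/6 recipients, and gBT-I cells were enriched and sorted from the spleen on day 7 after transfer. There were 2 libraries from GF recipients and 2 from SPF recipients. Donor genotype, activation in culture and transfer were shared by both groups, which differ in the recipient's microbiota. The comparison asks how the transcriptome of these cells differs between hosts with and without microbes. Nothing in the labels says whether replicates came from separate mice, and the spread behind each p-value may be technical. With 2 libraries a group, the smallest two-sided p of an exact permutation test is 0.33.

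Beta-oxidation shortens fatty acids by removing acetyl-CoA units in the mitochondrial matrix. A long-chain fatty acid is first joined to coenzyme A, handed to carnitine at the outer mitochondrial membrane, carried across the inner membrane and returned to coenzyme A. Each round then runs through a dehydrogenase, a hydratase, a second dehydrogenase and a thiolase, and electron transfer flavoprotein passes the electrons of the first step to the respiratory chain. CD8+ T cells are known to lean on glycolysis while they expand as effectors and more on fatty acid oxidation as memory cells.

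Total counts were 14219354 and 14431533 in GF replicates 1 and 2, and 11544960 and 14026051 in SPF replicates 1 and 2. Levels are given as CPM, counts per 1000000 of the library size after TMM scaling, and 3 counts correspond to between 0.205 and 0.262 CPM. The 7 CD8 T cell markers fixed for the check, among them Cd3e, Cd8a and Lck, summed to 4511 and 3863 CPM in GF and to 5319 and 4003 CPM in SPF (plain library totals). Of the markers of other cells, B cell genes summed to 146 and 30.6 CPM in GF and to 119 and 28.9 CPM in SPF, so they followed the replicate number. Cd79b, the most abundant of them, had 42.5 and 25.6 CPM in GF and 44.9 and 23.4 CPM in SPF. NK cell markers summed to 40.6 and 35.4 CPM in GF and to 69.1 and 49.98 CPM in SPF. CD4 T cell markers summed to 15.6 and 22.2 CPM in GF and to 30.7 and 29.4 CPM in SPF. Both sums were lower in both GF libraries. Klrb1c made up most of the NK cell sum. Cd40lg made up nearly all of the CD4 sum, at 15.05 and 20.9 CPM in GF and 29.97 and 28.9 CPM in SPF. The lower CD4 sum thus rests on Cd40lg and does not show fewer CD4 T cells in GF. Macrophage and monocyte markers summed to 9.35 and 10.5 CPM in GF against 8.32 and 7.34 CPM in SPF. Platelet markers summed to 4.501 and 4.296 CPM in GF against 2.08 and 3.35 CPM in SPF. Both of these sums were higher in both GF libraries. Cd68, the most abundant macrophage and monocyte marker, overlapped between the groups, at 4.22 and 10.5 CPM in GF against 3.46 and 6.49 CPM in SPF. The platelet sum was nearly all Itga2b, and Pf4 had no count in any library. The part of these cells in the differences between recipients was not tested. Markers of neutrophils and red cells summed to between 0 and 1.39 CPM. The dendritic cell list was the highest of the other cells, and most of it was Itgax, an integrin gene that activated CD8+ T cells also express, at 762 and 972 CPM in GF and 377 and 697 CPM in SPF.

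Of the 33 genes, 0 passed the test of GF against SPF in either direction, against 0% of the 11271 genes tested (edgeR quasi-likelihood test, Benjamini-Hochberg adjustment over all tested genes, threshold 0.05). Adjusted p-values of the 33 ran between 0.855 and 0.997. At an unadjusted p under 0.05 the count was 0 of 33, against a background of 3.22%, and DESeq2 called 0 of 33 as well, at an unadjusted p under 0.05 and after adjustment. Over all tested genes the DESeq2 shares were 2.95% unadjusted and 0.0799% adjusted (9 genes). The count of 0 over all tested genes depended on the model and on which SPF libraries were kept, and the cause was not tested. With the replicate number as a block, edgeR called 0 of the 33 against a background of 10.7%, and 4 had an unadjusted p under 0.05 against 28.1%. With a trend on transcript length removed as well, it called 0 of the 33 against 2.88%, and 6 had an unadjusted p under 0.05 against 24%. Mean values were higher in GF for 13 genes and lower for 20, with a median log2 fold change of -0.03, beside a median of -0.0042 over all tested genes. Single log2 fold changes lay between -0.53 (Eci1) and 0.40 (Pnpla2). In 5 genes both GF libraries lay above both SPF libraries, against a background of 16.8%, and in 5 both lay below, against 16.4%. These shares are near the background.

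The width of the intervals says how large a difference could have gone unseen. The 95% interval of the log2 fold change lay within -1 and 1 for 22 of the 33 genes, or 66.7%, beside 46.5% of all tested genes. For Acsl5 it ran between -0.55 and 0.43, and for Acsl3, a gene with 6 to 11 counts a library, between -1.56 and 1.72. A missed threshold therefore does not show that the groups are alike, least of all for the low genes.

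**Figure D1:**
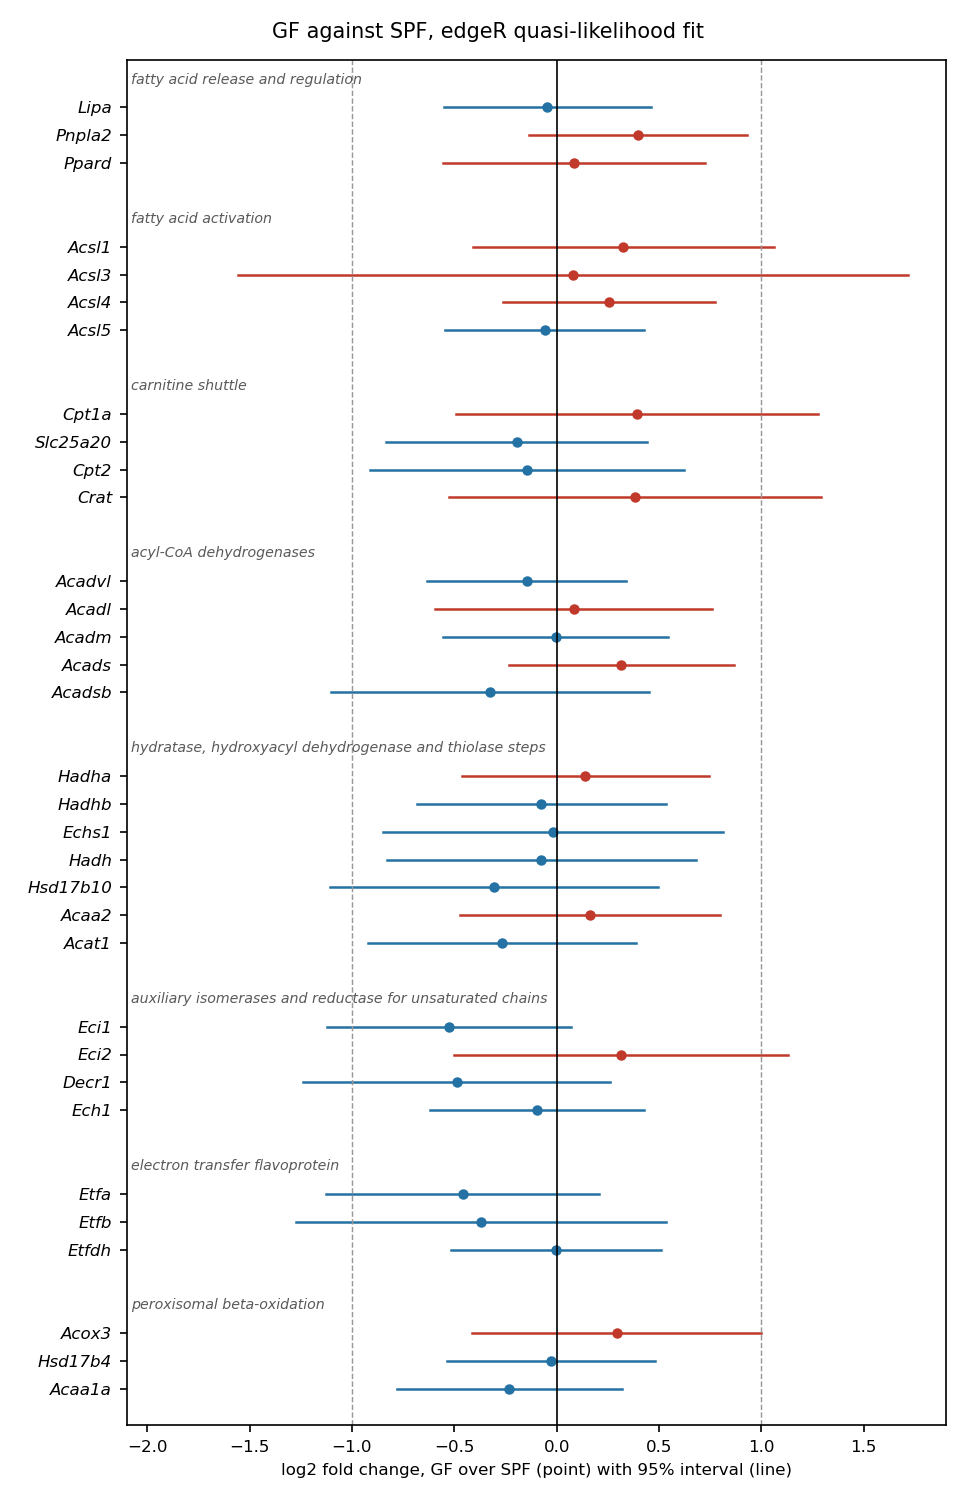
Log2 fold changes of the 33 fatty acid oxidation genes, GF over SPF, as points with 95% intervals from the edgeR quasi-likelihood fit as lines, grouped by role; red is higher and blue lower in GF, and dashed lines mark -1 and 1. Each interval includes 0, and the widest belongs to Acsl3, from -1.56 to 1.72.

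Levels between genes were compared as CPM per kb of exonic length, averaged over the 4 libraries. Ech1, which encodes a dienoyl-CoA isomerase, had the highest level at 77.9 ± 6.7 CPM per kb (SD, n = 4 libraries of both groups). Hadhb, the beta subunit of the mitochondrial trifunctional protein, followed at 66.5 ± 9.3 CPM per kb, and Etfb and Hsd17b10 had 57.8 ± 18.9 and 57.7 ± 15.3 CPM per kb. Ech1 exceeded Hadhb by more than either SD, while the means of Hadhb, Etfb and Hsd17b10 did not differ beyond their SDs. The SDs include shifts between libraries that genes share. Within each single library Hadhb was above Hsd17b10, by a narrow margin in SPF replicate 1 (77.7 against 77.5 CPM per kb). Etfb was above Hadhb in SPF replicate 1 (84.2 CPM per kb) and below it in the other libraries. At the other end, Acsl3 had 0.16 ± 0.05, Crat 1.63 ± 0.37, Acadsb 2.51 ± 0.56 and Acsl1 2.77 ± 0.48 CPM per kb. Acadsb and Acsl1 did not differ beyond their spread. Among the 4 long-chain acyl-CoA synthetase genes of the 33, levels per kb ran between those of Acsl3 and Acsl5 (43.6 ± 1.3 CPM per kb). Summed over the 33 genes, the level was 2224 and 2003 CPM in GF replicates 1 and 2, against 2185 and 2009 CPM in SPF replicates 1 and 2. The sums of the groups overlap, and the libraries numbered 1 had the higher sum in each group.

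**Figure D2:**
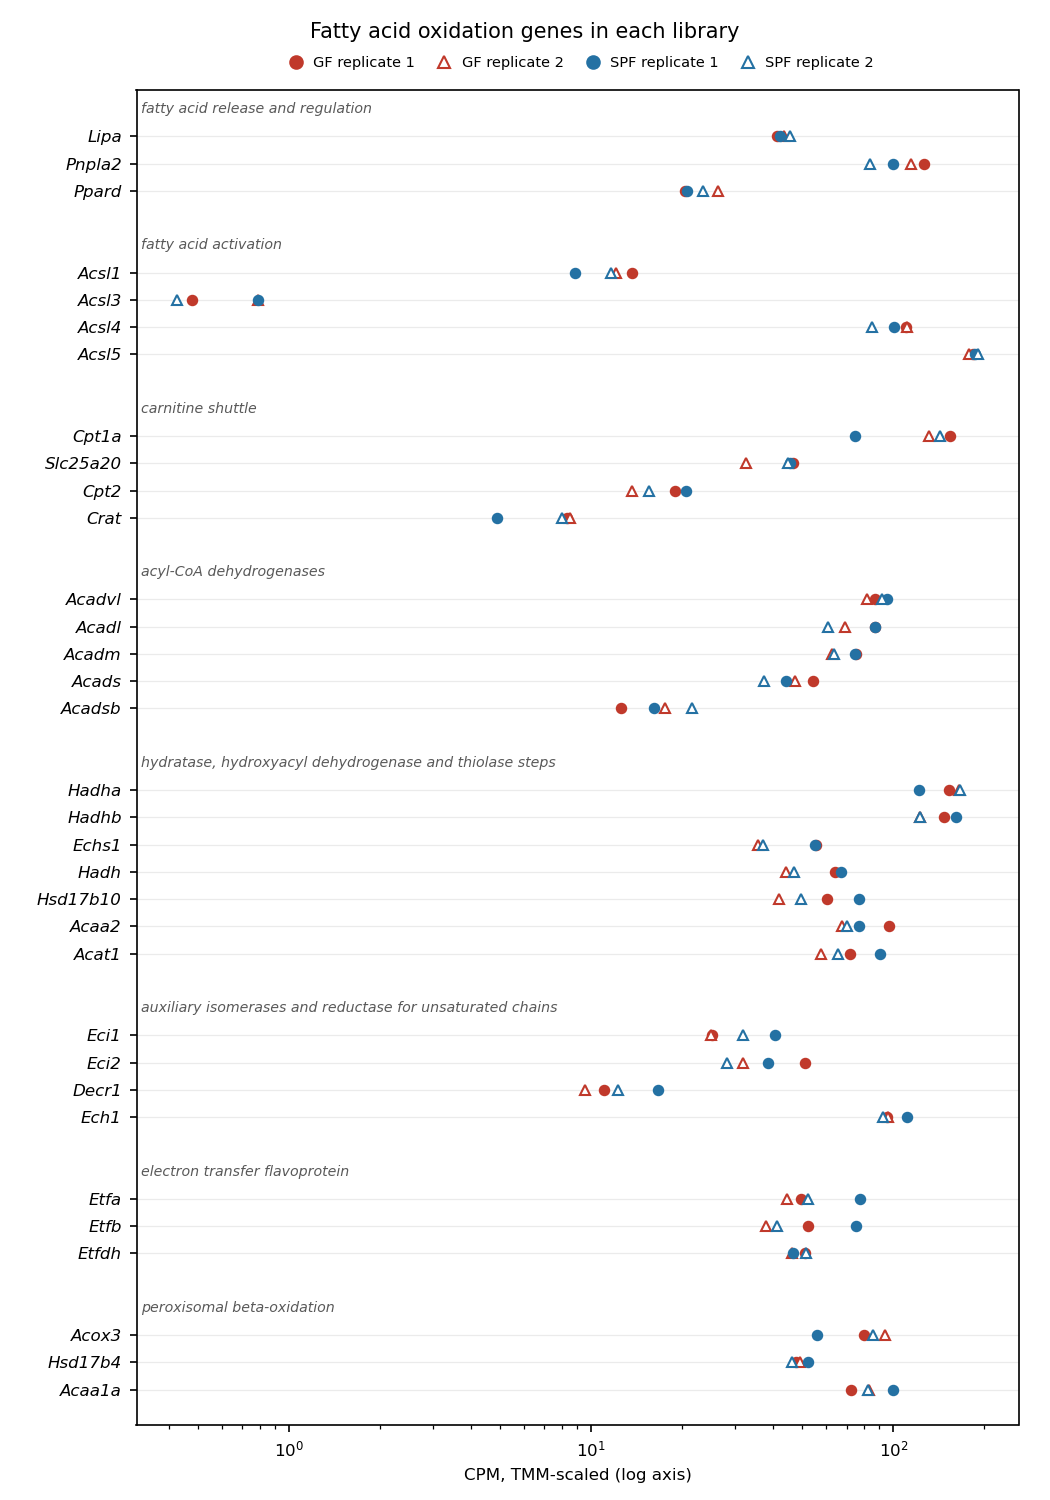
CPM after TMM scaling (log axis) of each fatty acid oxidation gene in each of the 4 libraries, grouped by role; red is GF and blue SPF, filled circles are replicate 1 and open triangles replicate 2. SPF replicate 1 stands away from the other 3 libraries for Cpt1a, Crat and Acox3 on the low side and for Etfa and Etfb on the high side.

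Fatty acid release and its regulation were represented by 3 genes. Pnpla2 encodes adipose triglyceride lipase, which starts the breakdown of stored triglyceride, with its gene at chromosome 7, positions 141455198 to 141460743 of the plus strand (mm10). It measured 126 and 115 CPM in GF replicates 1 and 2, against 99.8 and 83.4 CPM in SPF replicates 1 and 2. Both GF libraries were above both SPF libraries, and the log2 difference of GF minus SPF was 0.34 between libraries numbered 1 and 0.46 between those numbered 2. The log2 fold change was 0.40 (SE 0.21) and did not pass the edgeR test (unadjusted p = 0.116, adjusted p = 0.855). Lipa, the lysosomal acid lipase gene, measured 41.1 and 43.5 CPM in GF against 42.0 and 45.4 CPM in SPF. Ppard, which encodes the nuclear receptor PPAR-delta, a transcriptional regulator of oxidation genes, measured 20.5 and 26.3 CPM in GF against 20.7 and 23.5 CPM in SPF. The groups overlap for both Lipa and Ppard.

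Stretches before 2 genes are shown because these genes had the smallest p of those higher and of those lower in GF. They come from RefSeq promoter windows (GRCm38.p6), cut where the first annotated exon of the gene begins, and capitals mark GGGCGG or its reverse complement CCGCCC, the core of the SP1 site.
Pnpla2, chr7:141454938-141455187, plus strand: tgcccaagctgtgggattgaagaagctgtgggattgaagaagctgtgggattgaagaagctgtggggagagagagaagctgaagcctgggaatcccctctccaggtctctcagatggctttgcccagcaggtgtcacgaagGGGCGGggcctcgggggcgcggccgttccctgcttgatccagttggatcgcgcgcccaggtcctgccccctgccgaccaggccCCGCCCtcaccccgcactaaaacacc
Eci1, chr17:24426433-24426640, plus strand: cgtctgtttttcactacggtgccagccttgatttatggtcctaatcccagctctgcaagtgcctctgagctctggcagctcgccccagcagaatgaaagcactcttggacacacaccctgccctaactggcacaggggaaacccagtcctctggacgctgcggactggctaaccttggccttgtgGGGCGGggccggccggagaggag
RefSeq windows were matched for 28 of the 33 genes, and the 250 bases before each start were searched on both strands. GGGCGG was found before 21 of the 28 genes, and before 32.9% of 27025 genes with a window. The nuclear receptor site AGGTCA was found before 4 of the 28 (Acadm, Acadvl, Cpt1a and Echs1) and before 13.8% of all genes. The PPAR response element, 2 copies of that site in a row with 1 base between them, was found before 0 of the 28 and before 0.037% of all genes. For the estrogen-related receptor element TCAAGGTCA, which also holds the site, the values were 0 of 28 and 0.366%, and for the CCAAT box 12 of 28 and 34.5%. These are matches of letters in a short window and do not mark bound sites. The genes with a window include genes not tested here and were not matched to the 28 in base content. The RefSeq starts of Hadha and Hadhb lie 272 bases apart, so their windows overlap, and both genes are counted.

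The acyl-CoA synthetases join fatty acids to coenzyme A. Acsl5 was the most abundant of the 4 tested, at 184 and 178 CPM in GF replicates 1 and 2 against 186 and 191 CPM in SPF replicates 1 and 2. Both GF libraries were below both SPF libraries by a narrow margin, and the log2 fold change was -0.06 (SE 0.19). Acsl4, whose enzyme prefers arachidonic acid, measured 110 and 111 CPM in GF against 101 and 84.8 CPM in SPF, with both GF libraries above (log2 fold change 0.25, SE 0.20). Acsl1 also had both GF libraries above, at 13.6 and 12.1 CPM in GF against 8.82 and 11.7 CPM in SPF (log2 fold change 0.33, SE 0.29). Acsl3 was near the limit of detection, with 7 and 11 counts in GF and 9 and 6 counts in SPF. None of the 4 passed the edgeR test.

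Cpt1a encodes carnitine palmitoyltransferase of the outer mitochondrial membrane, the rate-limiting entry step for long chains. The gene occupies positions 3322334 to 3385733 of chromosome 19 (plus strand) and measured 154 and 132 CPM in GF replicates 1 and 2, against 74.8 and 143 CPM in SPF replicates 1 and 2. The groups overlap, since SPF replicate 2 lies between the GF libraries and SPF replicate 1 alone is low. The log2 fold change was 0.39 (SE 0.35, 95% interval -0.49 to 1.28, unadjusted p = 0.310). The log2 difference of GF minus SPF was 1.04 in the pair numbered 1 and -0.12 in the pair numbered 2. Without SPF replicate 1 the log2 fold change was 0.0016 (adjusted p = 1.000). Without SPF replicate 2 it was 0.93 and passed the edgeR quasi-likelihood test (adjusted p = 0.044), in a fit that called 6.77% of 11574 genes higher in GF, 11.5% in either direction, and assumes that the lone SPF library varies as the GF libraries do. Whether Cpt1a passed was thus set by which SPF library was compared with GF.

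The other shuttle genes were Slc25a20, the carnitine-acylcarnitine carrier of the inner membrane, Cpt2, which returns the chain to coenzyme A, and Crat, the carnitine acetyltransferase. Slc25a20 measured 46.4 and 32.4 CPM in GF against 45.4 and 44.9 CPM in SPF. Only GF replicate 2 stood away from the rest. Cpt2 measured 18.9 and 13.7 CPM in GF against 20.6 and 15.5 CPM in SPF, higher in the libraries numbered 1 of both groups. Crat measured 8.33 and 8.52 CPM in GF against 4.89 and 7.98 CPM in SPF, with both GF libraries above by a narrow margin in number 2. The count of Cpt1a divided by that of Cpt2 was 8.15 and 9.63 in GF and 3.63 and 9.24 in SPF, so SPF replicate 1 was apart in that ratio as well.

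The acyl-CoA dehydrogenases take the first step of each round and are named by the chain length they prefer. Acads, for short chains, measured 54.2 and 47.2 CPM in GF replicates 1 and 2 against 44.3 and 37.2 CPM in SPF replicates 1 and 2. Both GF libraries were above both SPF libraries, and the log2 fold change was 0.32 (SE 0.22), with 0.29 within number 1 and 0.34 within number 2. Acadvl, for very long chains, had both GF libraries below, at 87.0 and 81.7 CPM in GF against 95.04 and 91.84 CPM in SPF (log2 fold change -0.15, SE 0.19). Acadm, for medium chains, had 75.004 and 62.84 CPM in GF against 74.7 and 63.7 CPM in SPF. Its values matched by replicate number and not by recipient, and the log2 fold change was -0.01 (SE 0.22). Acadl, for long chains, had 87.1 and 69.1 CPM in GF against 86.7 and 60.8 CPM in SPF. The short and branched chain gene Acadsb, which also serves isoleucine breakdown, had 12.6 and 17.5 CPM in GF against 16.1 and 21.6 CPM in SPF, and here the libraries numbered 2 were the higher ones. None of the 5 passed the edgeR test.

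The trifunctional protein carries the later steps for long chains and is built from the products of Hadha and Hadhb. In mm10 these genes lie head to head on chromosome 5, Hadha from 30118304 to 30155162 on the minus strand and Hadhb from 30155248 to 30184593 on the plus strand. The gap of 85 bases between their outermost annotated exons is shown because both genes are transcribed away from it. Capitals again mark GGGCGG.
Gap between Hadha and Hadhb, chr5:30155163-30155247, plus strand: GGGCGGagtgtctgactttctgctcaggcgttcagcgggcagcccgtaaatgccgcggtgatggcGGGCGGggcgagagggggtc
Hadha measured 153 and 165 CPM in GF replicates 1 and 2 against 122 and 167 CPM in SPF replicates 1 and 2. Hadhb measured 147 and 122 CPM in GF against 162 and 122 CPM in SPF. The replicates differed in opposite directions for these genes: Hadha was lower and Hadhb higher in the libraries numbered 1 of both groups. The count of Hadha over that of Hadhb was 1.04 and 1.35 in GF, and 0.755 and 1.36 in SPF, so the ratio differed more between replicates than between recipients. The exonic length was 4017 nt for Hadha and 2080 nt for Hadhb. Log2 fold changes were 0.14 (SE 0.24) and -0.07 (SE 0.24).

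Of the remaining matrix steps, Echs1 and Hadh followed the replicate number closely. Echs1, the short-chain enoyl-CoA hydratase gene, measured 55.4 and 35.6 CPM in GF against 55.2 and 36.9 CPM in SPF. Hadh, the medium and short chain hydroxyacyl-CoA dehydrogenase gene, measured 64.1 and 44.0 CPM in GF against 67.0 and 46.9 CPM in SPF. In both genes the libraries numbered 1 were higher (log2 differences of replicate 2 minus 1 between -0.51 and -0.64), while the fold change between recipients was -0.02 (SE 0.33) and -0.07 (SE 0.30). Hsd17b10, whose product oxidises short hydroxyacyl chains and is also part of mitochondrial RNase P, measured 60.5 and 41.9 CPM in GF against 76.9 and 49.7 CPM in SPF, with a log2 difference of GF minus SPF of -0.35 in the pair numbered 1 and -0.25 in the pair numbered 2. The thiolase gene Acaa2 measured 97 and 67.8 CPM in GF against 77.0 and 70.2 CPM in SPF, and GF replicate 1 alone was high. Acat1, the mitochondrial acetoacetyl-CoA thiolase gene, measured 71.9 and 57.6 CPM in GF against 90.5 and 65.4 CPM in SPF, and was likewise lower in GF within both pairs, at -0.33 and -0.18. Over the 7 genes of these steps, 2 had higher and 5 lower mean values in GF, and in 0 were the groups apart, beside 33.2% of all tested genes.

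Unsaturated chains need extra isomerases and a reductase before they can pass through the main cycle. Eci1, an enoyl-CoA isomerase gene on chromosome 17 from 24426641 to 24439348 (plus strand), had the smallest p of the 33 genes. It measured 25.14 and 24.98 CPM in GF replicates 1 and 2 against 40.4 and 31.7 CPM in SPF replicates 1 and 2, with both GF libraries below. The log2 fold change was -0.53 (SE 0.24, 95% interval -1.12 to 0.07), with unadjusted p = 0.074 and adjusted p = 0.855 by edgeR. Decr1, the dienoyl-CoA reductase gene, also had both GF libraries below, at 10.998 and 9.52 CPM in GF against 16.6 and 12.2 CPM in SPF (log2 fold change -0.49, SE 0.30). Eci2, a second isomerase gene, measured 51.2 and 31.8 CPM in GF against 38.6 and 28.2 CPM in SPF, where the groups overlap and both libraries numbered 1 exceed both numbered 2. Ech1 measured 94.95 and 95.83 CPM in GF against 111 and 92.8 CPM in SPF. Eci1 and Eci2 thus had fold changes of opposite sign, -0.53 and 0.31 (SE 0.32), and neither passed.

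Electron transfer flavoprotein has an alpha subunit from Etfa and a beta subunit from Etfb, and Etfdh encodes the oxidoreductase that hands its electrons to ubiquinone. Etfa, at positions 55454508 to 55512243 of chromosome 9 (minus strand), measured 49.5 and 44.6 CPM in GF replicates 1 and 2 against 77.3 and 52.1 CPM in SPF replicates 1 and 2. Both GF libraries were below, and the log2 fold change was -0.46 (SE 0.26, unadjusted p = 0.140). It was -0.14 without SPF replicate 1, -0.72 without SPF replicate 2 and -0.18 with a trend on transcript length removed. Etfb, with the shortest exonic length of the 33 at 893 nt, measured 52.2 and 37.8 CPM in GF against 75.2 and 41.3 CPM in SPF. Its groups overlap, and SPF replicate 1 was high for both subunits. The count of Etfa over that of Etfb was 0.949 and 1.18 in GF, and 1.03 and 1.26 in SPF. Etfdh measured 51.2 and 46.2 CPM in GF against 46.4 and 51.3 CPM in SPF, with a log2 fold change of -0.00 (SE 0.20).

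Peroxisomes shorten very long and branched chains with their own enzymes. Acox3, an acyl-CoA oxidase gene for branched chains, measured 79.79 and 94.04 CPM in GF replicates 1 and 2 against 55.8 and 86.0 CPM in SPF replicates 1 and 2. SPF replicate 1 alone was low, as for Cpt1a, and the log2 fold change was 0.29 (SE 0.28). Hsd17b4, the peroxisomal bifunctional enzyme gene, measured 47.54 and 48.95 CPM in GF against 52.3 and 46.1 CPM in SPF. Acaa1a, a peroxisomal thiolase gene, measured 72.3 and 83.4 CPM in GF against 99.9 and 82.7 CPM in SPF. Its close paralog Acaa1b had 0 counts in all 4 libraries, and reads shared by the pair could have been assigned to one of them or lost.

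Differences between libraries of the same group were as large as those between recipients. Over the 33 genes the median absolute log2 difference was 0.23 between the GF libraries and 0.40 between the SPF libraries. Between recipients the value was 0.33 in the pair numbered 1 and 0.15 in the pair numbered 2. GF replicate 1 and SPF replicate 2 differed by 0.19, and GF replicate 2 and SPF replicate 1 by 0.35. The closest pair of the 6 was therefore one of different recipients. For 10 of the 33 genes the absolute fold change between recipients exceeded the mean absolute difference between replicates, as it did for 3830 of the 11271 tested genes. SPF replicate 1 was the lowest or the highest library for 18 of the 33 genes, beside 76.2% of all tested genes, and GF replicate 2 for 20 of the 33, beside 61.4%. Leaving out SPF replicate 1 moved the log2 fold changes of single genes both ways. Those of Eci1, Decr1, Acsl1, Crat and Acox3 were then -0.34, -0.25, 0.14, 0.0789 and 0.0169, each nearer to 0 than with all 4 libraries. Those of Pnpla2, Acads, Acsl4, Acadsb and Eci2 were 0.53, 0.45, 0.38, -0.52 and 0.56, each farther from 0. B cell markers and transcript length moved with the replicate number too, and the part of the B cell RNA in these values was not tested. In sorted bulk samples, fewer cells of a type and less RNA per cell cannot be told apart.

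Transcript length went along with these differences. The median exonic length was 2372 nt for the 33 genes and 3216 nt for tested genes. For replicate 2 minus 1, Spearman's rho with length across the 33 genes was 0.56 in GF and 0.65 in SPF, and for GF minus SPF it was 0.44. Across 11194 tested genes these were 0.52, 0.57 and 0.41. The values are descriptions, since genes share libraries and are not independent. The 13 genes under 2000 nt, from Etfb to Acadl, had a median log2 fold change of -0.10, with 4 higher and 9 lower in GF, where all 2788 tested genes of that length had -0.26. The 8 genes of 4000 nt or more, which include Cpt1a, Crat, Hadha, Acox3 and 3 synthetase genes, had a median of 0.27, with 6 higher and 2 lower, where all 4102 tested genes of that length had 0.17. With the trend on length removed from each library, 22 of the 33 genes were higher and 11 lower in GF, against 13 and 20 before, and 0 passed in either fit.

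**Figure D3:**
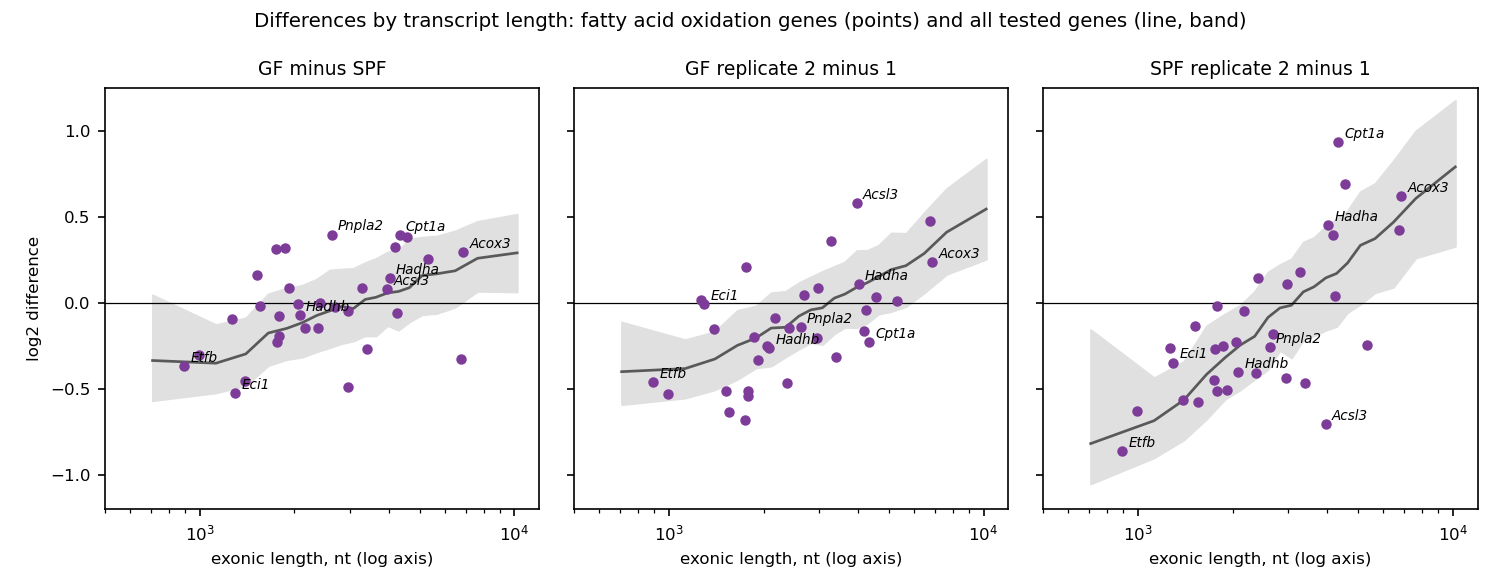
Log2 differences against exonic length (log axis, nt) for GF minus SPF, GF replicate 2 minus 1 and SPF replicate 2 minus 1; points are the 33 fatty acid oxidation genes, the line is the median and the band the range between the quartiles of all tested genes in bins of length. The points climb with length in each panel, with rho of 0.44, 0.56 and 0.65 across the 33 genes.

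Removing the trend turned the direction of 9 of the 33 genes. Etfb, at -0.37 (SE 0.36), had 0.03 without the trend, and Hsd17b10, at -0.31 (SE 0.32), had 0.04. The log2 fold changes of Pnpla2, Acads, Eci1 and Decr1 had the same sign with the trend removed, at 0.45, 0.46, -0.24 and -0.47. For Eci1 the size was less than before, and its exonic length of 1297 nt is among the shortest. None of these values passed the edgeR test. Exons of some members also overlap those of other genes: 976 nt of Acadvl lie across from Dvl2, 700 nt of Acox3 across from an antisense gene, and 617 nt of Etfb on the same strand as Gm45233. Shorter overlaps of exons were found for Acsl3, Acsl5, Crat, Eci2 and Hadha. The library kit does not mark strand, so reads in the opposite-strand overlaps cannot be told apart. Strand could not separate reads in the same-strand overlaps either, which cover 617 of the 893 nt of Etfb and 206 nt of Acsl3. How such reads were counted is not given, so the levels of these genes carry that limit.

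A list of 71 further genes of the pathway was examined beside the 33. It covers regulators, uptake, lipid droplets, other mitochondrial and peroxisomal oxidation genes and ketone body use. Of the 52 tested, 0 passed the edgeR test in either direction, and DESeq2 called 0. The count with an unadjusted p under 0.05 was 3, beside 3.22% of all tested genes, and 8 had both GF libraries above and 6 both below both SPF libraries, next to the backgrounds of 16.8% and 16.4%. The median log2 fold change was -0.06, with 21 genes higher and 31 lower in GF. Without SPF replicate 2, 3 of the further genes passed the edgeR test, with Rxra and Acaca higher and Dbi lower in GF, in the fit that called 11.5% of all genes. With the replicate number as a block, 6 passed (Rxra, Acsf2, Acss1 and Acaca higher, Plin2 and Dbi lower), against the background of 10.7%.

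The 3 genes with an unadjusted p under 0.05 each had groups that did not overlap. Rxra, which encodes a retinoid X receptor that pairs with PPARs, measured 41.9 and 53.3 CPM in GF replicates 1 and 2 against 17.4 and 28.3 CPM in SPF replicates 1 and 2 (log2 fold change 1.06, SE 0.32, adjusted p = 0.855 by edgeR). Acsf2, an acyl-CoA synthetase gene of medium chains, measured 33.5 and 30.0 CPM in GF against 19.3 and 22.6 CPM in SPF. Plin2, a coat protein gene of lipid droplets, was the one with lower values, at 7.58 and 5.87 CPM in GF against 15.5 and 14.1 CPM in SPF (log2 fold change -1.14, SE 0.29).

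Other named genes of the list had wider or smaller differences. Acss1, a mitochondrial acetyl-CoA synthetase gene, measured 156 and 170 CPM in GF against 107 and 130 CPM in SPF. Dbi, the acyl-CoA binding protein gene, measured 23.0 and 16.7 CPM in GF against 47.4 and 22.5 CPM in SPF, and SPF replicate 1 alone was high. The log2 fold change of Dbi was -0.81 (SE 0.42), with -0.18 without SPF replicate 1 and -1.26 without SPF replicate 2. The hormone-sensitive lipase gene Lipe measured 9.63 and 8.73 CPM in GF against 6.99 and 6.92 CPM in SPF, so both GF libraries were above, as for Pnpla2. G0s2, whose product inhibits adipose triglyceride lipase, measured 3.35 and 2.43 CPM in GF against 7.69 and 3.46 CPM in SPF, with both GF libraries below. Its log2 fold change was -0.94 (SE 0.51), against -0.26 without SPF replicate 1. For the coactivator gene Ppargc1b the log2 fold change was 0.51 (SE 0.41), for the mitochondrial transcription factor gene Tfam -0.37 (SE 0.26) and for the fatty acid binding protein gene Fabp5 0.51 (SE 0.45). Single libraries moved these values: without SPF replicate 1 they were 0.12, -0.08 and 1.03, and without SPF replicate 2 they were 1.04, -0.62 and 0.11. In peroxisomes, Scp2, a sterol carrier and thiolase gene, had -0.45 (SE 0.31) and the racemase gene Amacr -0.83 (SE 0.51), against -0.09 and -0.29 without SPF replicate 1. Pex5, the import receptor gene of peroxisomes, measured 66.4 and 69.6 CPM in GF against 58.001 and 55.1 CPM in SPF, with both GF libraries above (log2 fold change 0.27, SE 0.19). Slc27a4, a fatty acid transport protein gene, measured 39.2 and 44.7 CPM in GF against 36.4 and 40.3 CPM in SPF, and its groups overlap. Acad12, a low acyl-CoA dehydrogenase family gene at 0.683 and 0.787 CPM in GF against 1.14 and 1.48 CPM in SPF, had -0.83 (SE 0.50). For the ketone body genes Bdh1 and Oxct1 the log2 fold change was -0.0016 (SE 0.24) and -0.23 (SE 0.21).

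**Figure D4:**
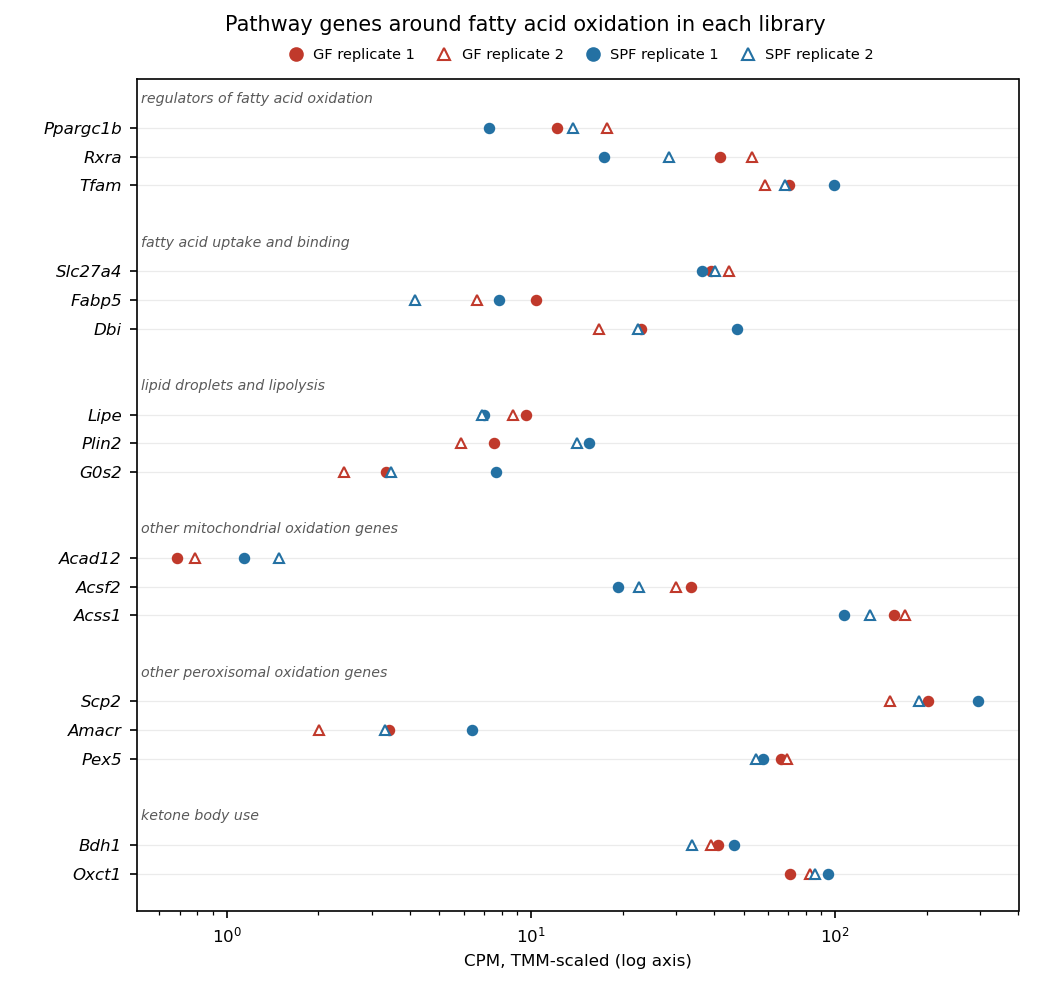
CPM after TMM scaling (log axis) of up to 3 genes with the smallest p in each group of further pathway genes, in each of the 4 libraries; red is GF and blue SPF, filled circles are replicate 1 and open triangles replicate 2. Rxra, Lipe, Acsf2, Acss1 and Pex5 have both GF libraries to the right of both SPF libraries, and Plin2, G0s2, Acad12 and Oxct1 have both to the left.

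The 19 pathway genes left out by the filter on low counts include Ppara, the PPAR of liver, with 1 and 0 counts in GF and 0 and 1 in SPF, and the coactivator gene Ppargc1a, with 0 counts in each library. The muscle and brain forms of carnitine palmitoyltransferase, Cpt1b and Cpt1c, had at most 4 counts in any library. Of these 19 genes, 8 had no count at all, which allows up to 0.262 CPM in SPF replicate 1 (counting error only). Cpt1a was thus the one carnitine palmitoyltransferase 1 gene with more than a few reads in these cells.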

How the data were processed

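The deposited table gives raw counts of reads for each gene symbol in each library, and its columns were assigned to libraries by name. The submitters' processing notes list CASAVA, TopHat, Picard, featureCounts, Subread and edgeR, and mm10 as the build, with versions and settings not given in the sources used here. Genes were filtered with filterByExpr, scaled by TMM and compared between GF and SPF in edgeR 4.0.16 (R 4.3.3) by its two-sided quasi-likelihood test, with recipient as the one term. Benjamini-Hochberg adjustment covered all 11271 tested genes, with 0.05 as the threshold. The SE is the absolute log2 fold change over the root of the F statistic, and 95% intervals use the fit's t quantiles. The procedure was tested on simulated counts of independent libraries, with a smaller dispersion than the common dispersion of 0.0763 in the main fit. These counts had no effect of replicate number or length. That test therefore covers neither such effects nor the spread of these data. For single libraries, log2 CPM values carry a prior count of 2. DESeq2 1.42.0 was an alternative, beside other scaling, no filter, the replicate number as a block, removal of a lowess trend (span 0.3) on length, and each library left out.

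Positions and exonic lengths (union of exons) came from the GENCODE M21 basic annotation of GRCm38, the assembly of mm10, with a length for 99.3% of tested genes, and promoter windows from RefSeq. The text names all 33 genes and up to 3 tested genes of each further pathway list with the smallest p. It also names the most abundant marker of each list whose sum is given for each library. Genes given only for low counts, a nearby position or a call under an alternative (Acaa1b, Acaca, Ppara, Ppargc1a, Cpt1b, Cpt1c, Dvl2, Gm45233) were chosen after their values were seen. Some pathway genes are not reported here and were left out of the lists and their counts. The genes and lists were chosen with earlier results of these data known. Figures were drawn with matplotlib 3.10.9.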

Additional observations from a re-analysis of the deposited data

How the results depend on the processing

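The number of fatty acid oxidation genes past the threshold was 0 under other scaling, no filter, DESeq2, the replicate block and both fits with the length trend removed, and between 0 and 1 with a library left out (Cpt1a, without SPF replicate 2). A library left alone in its group is assumed to vary like the other group. The counts over all tested genes were 0 with all 4 libraries, 9 with DESeq2, 1206 with the replicate block, 325 with the replicate block with length trend removed, and between 0 and 1327 with a library left out (1327 without SPF replicate 2, 17 without SPF replicate 1, 0 without either GF library). For the further pathway genes they were 0, then 6 with the replicate block (Rxra, Acsf2, Acss1 and Acaca upward, Plin2 and Dbi downward), 2 with the replicate block with length trend removed (Rxra upward, Plin2 downward), and between 0 and 3 with a library left out. The cause was not tested. With the replicate block, the 33 genes had a smallest adjusted p of 0.072 (Eci1). No label says that a replicate number marks a shared animal or day, so the libraries share only a number. Across genes, the differences of replicate 2 minus 1 correlated at 0.71 between the groups, and the common dispersion was 0.0763 without and 0.0171 with the block.

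The median log2 fold change of the 33 genes lay between -0.12 and 0.07 over all alternatives. The median log2 CPM of these genes, a level and not a fold change, had an SD of 0.252 between replicates. With the length trend removed, 9 genes changed sign: Acadm (0.11), Hadhb (0.0465), Echs1 (0.20), Hadh (0.0894), Hsd17b10 (0.0421), Ech1 (0.19), Etfb (0.0298), Etfdh (0.0606) and Hsd17b4 (0.0187). With the replicate block as well they had 0.11, 0.0471, 0.19, 0.0833, 0.043, 0.19, 0.0299, 0.0683 and 0.0185 in that order. With a library left out 18 of the 33 changed sign. Their ranges were -0.12 to 0.39 for Acaa2, -0.16 to 0.36 for Acadl, -0.14 to 0.11 for Acadm, -0.32 to 0.57 for Acsl3, -0.40 to 0.0762 for Cpt2, -0.23 to 0.0416 for Ech1 and -0.38 to 0.30 for Echs1. For Eci2 it was -0.074 to 0.61, for Etfb -0.75 to 0.13, for Etfdh -0.0815 to 0.0637, for Hadh -0.37 to 0.21, for Hadha -0.0663 to 0.38 and for Hadhb -0.27 to 0.14. The rest were Hsd17b10 (-0.60 to 0.044), Hsd17b4 (-0.12 to 0.0681), Lipa (-0.10 to 0.0027), Ppard (-0.11 to 0.25) and Slc25a20 (-0.48 to 0.0355). The other 15 had 1 sign in each fit run. Of the named further genes, Bdh1 had 0.0021 with DESeq2, 0.0020 with RLE scaling, 0.0142 with the replicate block and -0.22 to 0.25 with a library left out.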
